A study of Mus musculus with 28 samples.

Results

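The 10 genes described here carry ceramide to sphingosine, sphingosine to sphingosine 1-phosphate (S1P), and S1P to its receptors or its breakdown. They are the ceramidases Asah1, Asah2, Acer2 and Acer3, the sphingosine kinases Sphk1 and Sphk2, the S1P lyase Sgpl1, the S1P phosphatase Sgpp1 and the S1P receptors S1pr1 and S1pr3. They were taken as a named list, chosen with earlier results of these data known, and they are 10 of the 55891 gene identifiers in the sWAT table. All 10 are listed in each of the 5 depot tables.

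Ceramidases cut the fatty acid from ceramide and leave sphingosine, the acid enzyme Asah1 in lysosomes, Acer2 in the Golgi, Acer3 in the endoplasmic reticulum and Golgi, and the neutral enzyme Asah2 at the cell surface. Sphingosine kinases then add a phosphate to make S1P, a lipid that cells export and that acts on G protein-coupled receptors, of which S1pr1 is abundant on endothelial cells and lymphocytes. S1P is lost when the lyase Sgpl1 cleaves it irreversibly or when phosphatases such as Sgpp1 turn it back to sphingosine, which ceramide synthases can use again. In fat, ceramide is known as a lipid that accumulates in obesity and impairs insulin signalling.

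Bulk RNA-seq compared adipose tissue of mice with an Fgf13 knockout (KO) with that of control mice labelled WT, in 28 libraries of which 13 were KO and 15 control. Inducible adipose knockout was profiled in epididymal white fat (ieWAT, 3 KO and 3 control libraries) and subcutaneous white fat (isWAT, 2 KO and 3 control), and constitutive adipose knockout in subcutaneous white fat (sWAT, 3 KO and 3 control) and brown fat (BAT, 2 KO and 3 control). KO and control mice of these 4 sets were obese after 20 weeks of high fat feeding. A further epididymal set (eWAT, 3 KO and 3 control) has no knockout type and no diet in the series text. The sources used here do not give the promoter that drives the deletion or the age, sex and strain of the mice. They also leave unsaid whether the libraries in a group are from different mice and whether 1 mouse gave several depots, so p-values measure the spread between these libraries, which may in part be technical.

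Fgf13, the deleted gene, was lower in each KO library than in each control library of ieWAT, isWAT, sWAT and BAT (means of 27.1, 33.3, 63.2 and 1.06 CPM in KO against 44.3, 60.3, 109.5 and 9.07 CPM in control). In eWAT it was not lower in the libraries labelled KO (23.1, 17.6 and 27.0 FPKM, against 20.4, 27.6 and 12.9 FPKM in control), so directions in eWAT rest on the labels. The 22 libraries of the first 4 sets held 13490948 to 48812592 reads, and read totals of eWAT are unknown. Brown fat carried its defining markers, with Ucp1 at 4950.4 and 6594 CPM in KO and 5048 to 7238 CPM in control, against at most 7.13 CPM in the white depots measured in CPM. Skeletal muscle transcripts were uneven in BAT, where the summed 10 muscle markers ran from 0.923 to 5963 CPM in KO and from 9.23 to 1224 CPM in control, and in sWAT, where they ran from 22.7 to 2687 CPM in KO and from 20.2 to 35.4 CPM in control. Log2 changes are those of log2(value + 1), KO minus control, as fitted by limma, with the standard error (SE) and with p adjusted by Benjamini-Hochberg over all genes of a depot.

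The 250 bases before the annotated start are shown for Sgpl1, Acer3 and Sgpp1, which were all lower in the eWAT libraries labelled KO, and for Acer2, whose KO mean was lower in the other 3 white depots. They are RefSeq sequences of build GRCm38.p6, written 5′ to 3′ on the strand of the gene, with the last base next to the start. Capitals mark the GC box, a common element of housekeeping promoters, searched as GGGCGG on either strand (CCGCCC when read on the printed strand).
Sgpl1: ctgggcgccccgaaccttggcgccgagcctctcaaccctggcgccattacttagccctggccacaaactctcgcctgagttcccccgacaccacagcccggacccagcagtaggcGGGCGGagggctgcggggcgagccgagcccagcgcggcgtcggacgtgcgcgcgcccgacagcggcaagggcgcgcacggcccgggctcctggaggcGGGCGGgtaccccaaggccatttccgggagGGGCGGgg
Acer3: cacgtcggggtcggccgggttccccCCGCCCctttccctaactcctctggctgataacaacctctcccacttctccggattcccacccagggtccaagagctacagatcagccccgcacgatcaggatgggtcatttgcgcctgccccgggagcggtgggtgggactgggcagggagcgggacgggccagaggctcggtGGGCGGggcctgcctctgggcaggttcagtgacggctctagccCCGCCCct
Sgpp1: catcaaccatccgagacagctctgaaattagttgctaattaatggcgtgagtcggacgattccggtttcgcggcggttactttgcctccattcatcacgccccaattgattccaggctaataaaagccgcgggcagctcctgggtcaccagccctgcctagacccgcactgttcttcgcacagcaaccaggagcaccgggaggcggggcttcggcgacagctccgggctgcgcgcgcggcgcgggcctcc
Acer2: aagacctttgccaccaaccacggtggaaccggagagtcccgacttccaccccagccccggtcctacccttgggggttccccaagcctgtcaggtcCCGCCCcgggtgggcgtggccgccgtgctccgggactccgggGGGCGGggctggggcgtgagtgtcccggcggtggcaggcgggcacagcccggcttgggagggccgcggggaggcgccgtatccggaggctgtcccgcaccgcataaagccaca
The window of Sgpl1 is chr10:61147685-61147934 on the minus strand, that of Acer3 chr7:98309543-98309792 on the minus strand, that of Sgpp1 chr12:75735730-75735979 on the minus strand and that of Acer2 chr4:86874164-86874413 on the plus strand. Sgpl1 held 3 GC boxes, Acer3 3 and Acer2 2, while these letters were not found in the Sgpp1 window, and 33% of 32536 windows of the same length held at least 1. GC content was 74.8% for Sgpl1, 68.4% for Acer3, 61.2% for Sgpp1 and 73.2% for Acer2. The letters CACGTG, an E-box read by the lysosomal and pigment cell factors of the Mitf family, were found in none of the 4 windows and in 6.04% of all windows; this motif was chosen after Mitf was seen among the genes most like Acer3. The second start listed for Acer3 held neither motif. Among the genes not shown, Sphk1 held CACGTG 95 and 102 bases before neighbouring starts, in overlapping windows, and none before its other listed starts. Asah2, S1pr3 and Sphk2 held no CACGTG. Of the 10 genes, 8 have an entry in the promoter table used, and Asah1 and S1pr1 do not.

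Within each depot the genes differed widely in level. Divided by exon length, and ranked by the mean of the control libraries, S1pr1, Asah1 and Sgpl1 were the highest 3 of the 10 in every depot and Sphk1 the lowest. Single libraries did not all keep this order: in the third eWAT control library S1pr1 (27.1 FPKM) lay below Acer3 (34.7 FPKM) and Sgpp1 (29.0 FPKM), and Sphk1 (8.96 FPKM) lay above Acer2 (6.77 FPKM) and Asah2 (6.69 FPKM). In ieWAT the control means of Sphk1 and Acer3 were 1.57 and 1.60 CPM per kilobase, and their libraries overlapped. In sWAT control libraries the per-length level averaged 70.1 CPM per kilobase for S1pr1, 29.7 for Asah1 and 19.8 for Sgpl1, followed by Acer2 at 10.1, Sphk2 at 9.31, S1pr3 at 6.07, Sgpp1 at 5.97, Asah2 at 3.71, Acer3 at 1.17 and Sphk1 at 0.299. In that order the control libraries of S1pr3 and Sgpp1 overlapped, while those of Acer2 all lay above those of Sphk2. In ieWAT control libraries Asah1 (42.4 ± 9.70 CPM per kilobase, SD, n = 3), S1pr1 (42.2 ± 3.69) and Sgpl1 (41.2 ± 4.95) did not differ beyond their spread. In eWAT, where FPKM is already per length, Asah1 led with a control mean of 169 FPKM, ahead of Sgpl1 at 105.5 FPKM and S1pr1 at 33.9 FPKM. Levels are not compared between depots here beyond this order, since each depot was deposited as its own table.

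**Figure D1:**
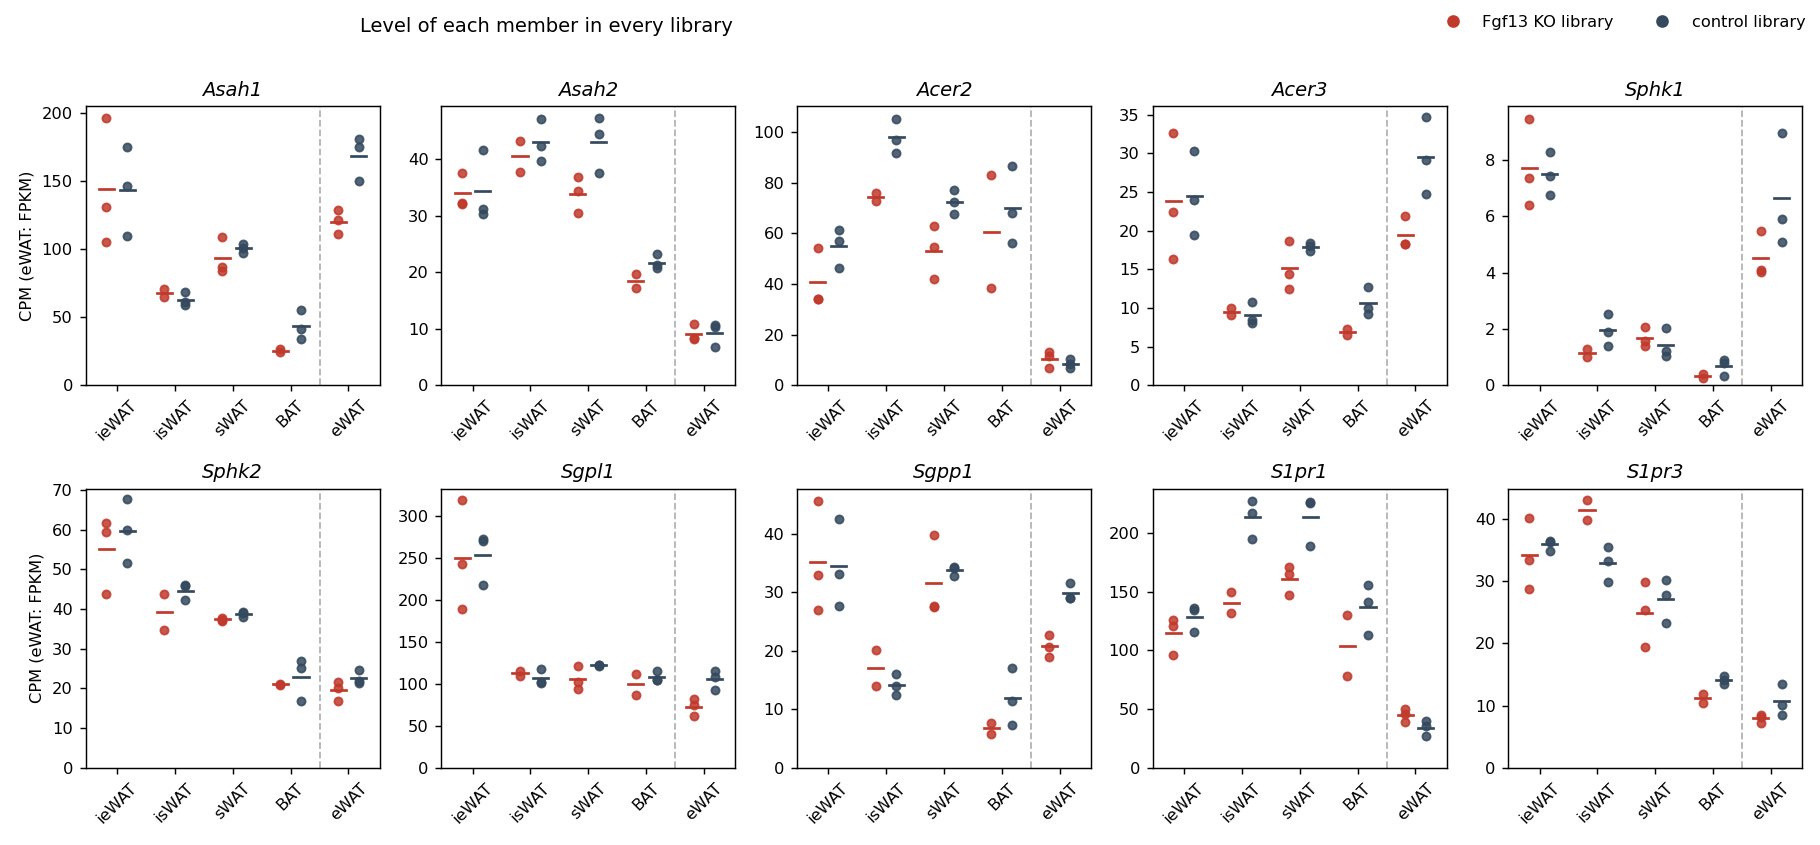
Each panel plots 1 gene, with every library as a point and the group mean as a bar, in CPM for ieWAT, isWAT, sWAT and BAT and in FPKM for eWAT (right of the dashed line), KO libraries left of control libraries. S1pr1 in isWAT lies at 132 and 149 CPM in KO, below the control libraries at 195 to 227 CPM, and Asah1 in eWAT lies at 111 to 129 FPKM in the libraries labelled KO, below control at 149.9 to 181 FPKM.

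With limma, the calls among the 10 genes were all in eWAT, where the lysosomal ceramidase Asah1, the ceramidase Acer3, the S1P lyase Sgpl1 and the S1P phosphatase Sgpp1 fell by 28.6% to 34.0% in the libraries labelled KO. These 4 of 10 genes were called lower at an adjusted p under 0.05 by limma and 0 were called higher, where 4.7% of the 13736 genes tested were called lower and 14.9% were called in either direction. At an unadjusted p under 0.05 there were 4 lower and 1 higher, against 15% of all genes lower and 33.9% in either direction. The groups of 4 genes did not overlap in eWAT, all of them lower in the libraries labelled KO, against 19.6% of all genes lower without overlap and 41.2% in either direction. The median change of the 10 was -0.40 and that of all genes -0.02. The other 6 genes did not pass. DESeq2 on recovered reads, which could not be run in eWAT, called S1pr1 (adjusted p = 0.000416) and Acer2 (adjusted p = 0.0234) lower in isWAT. On the same reads edgeR called neither S1pr1 (adjusted p = 0.383) nor Acer2 (adjusted p = 0.397). Over all genes DESeq2 called 245 of 28420 in isWAT, 153 of them lower.

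In the 4 depots with a lower Fgf13, none of the 10 genes was called by limma, and neither was Fgf13 itself. Its limma adjusted p was 0.99988 in ieWAT, 0.179 in isWAT, 0.447 in sWAT and 0.251 in BAT. A gene that was not called in these fits may thus still differ. In ieWAT 0 of 10 were called, where 0% of 14749 genes were called, 0 had an unadjusted p under 0.05, against 2.62% of all genes, and 0 had groups without overlap, against 5.11%. In isWAT 0 of 10 were called, with 0.00701% of all genes called, while 3 had an unadjusted p under 0.05, against 13.1% of all genes, and 4 had groups without overlap, against 31.6%. Of the isWAT genes, 2 of those 3 and 3 of those 4 were lower in KO, against 9.13% and 19.4% of all genes. In sWAT 0 of 10 were called, with 0.0217% of all genes called; 3 had an unadjusted p under 0.05, all lower in KO, against 7.72% of all genes lower (9.66% in either direction), and 4 had groups without overlap, all lower in KO, against 12.3% (16.1% in either direction). In BAT 0 of the 9 tested were called, with 0.00755% of all genes called; 3 had an unadjusted p under 0.05, all lower in KO, against 16.8% of all genes lower (19.2% in either direction), and 4 had groups without overlap, all lower in KO, against 38.1% (44.5% in either direction). The BAT share without overlap is thus near that of all genes, and the median change of all BAT genes was itself -0.18, a shift of 0.19 from the value after TMM scaling. Median changes of the list were -0.06 in ieWAT, -0.01 in isWAT, -0.17 in sWAT and -0.31 in BAT, beside all-gene medians of 0.02, -0.03, -0.05 and -0.18. DESeq2 on the recovered reads called 2 of the 10 in isWAT, S1pr1 and Acer2, and 0 in ieWAT, sWAT and BAT, and edgeR called 0 in all 4 depots. Over all genes DESeq2 called 245 of 28420 in isWAT, 32 of 29330 in ieWAT, 85 of 25611 in sWAT and 691 of 23757 in BAT.

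**Figure D2:**
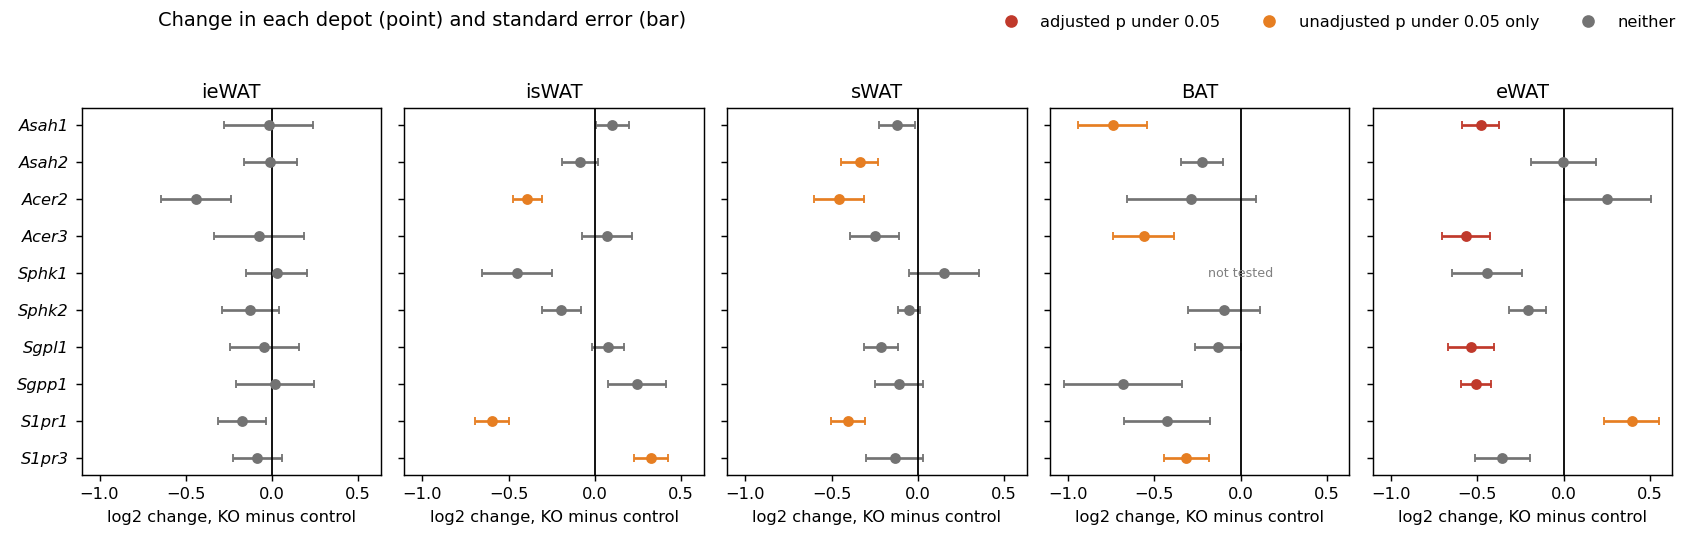
Log2 change (KO minus control) of each gene with its standard error, 1 panel per depot, coloured by whether the adjusted or only the unadjusted p was under 0.05. Of these genes, those past limma's adjusted threshold are all in eWAT (Asah1 -0.48, Acer3 -0.57, Sgpl1 -0.54, Sgpp1 -0.51), and Sphk1 was under the filter in BAT and has no limma value there.

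S1pr1, the receptor through which S1P maintains endothelial junctions and lets lymphocytes leave lymphoid tissue, was lower on average in KO libraries of the 4 depots measured in CPM. In isWAT it stood at 132 and 149 CPM in KO libraries, against 217, 195 and 227 CPM in control libraries. No KO library reached the control range, and the log2 change was -0.60 (SE 0.10, limma adjusted p = 0.179, DESeq2 adjusted p = 0.000416, edgeR adjusted p = 0.383). In sWAT it stood at 171, 147 and 165 CPM in KO, against 226, 189 and 226 CPM in control. The sWAT groups did not overlap either, with a log2 change of -0.40 (SE 0.10, limma adjusted p = 0.447, DESeq2 adjusted p = 0.107, edgeR adjusted p = 0.543). In BAT the values were 129.7 and 77.8 CPM in KO, against 141, 113 and 155 CPM in control. The first BAT KO library lay inside the control range, and the log2 change was -0.43 (SE 0.25, limma adjusted p = 0.358). It was -0.79 without the first KO library, -0.06 without the second and -0.22 with TMM scaling. In ieWAT the values were 126, 121 and 96.3 CPM in KO, against 136, 116 and 134 CPM in control. These groups overlapped, with a log2 change of -0.17 (SE 0.14, limma adjusted p = 1.00).

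In eWAT the S1pr1 values were 38.6, 49.8 and 45.6 FPKM in the libraries labelled KO, against 39.6, 35.1 and 27.1 FPKM in control. Only the first library labelled KO lay inside the control range, and the log2 change was 0.39 (SE 0.16, limma adjusted p = 0.134). Leaving out control library 3 gave 0.25.

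The endothelial marker list was lower in KO libraries of isWAT, sWAT and BAT and higher in the eWAT libraries labelled KO, each without overlap, but it was not lower in ieWAT (difference of list means 0.05 on the log2 scale, with overlap). In bulk tissue fewer cells of a type and less RNA per cell cannot be told apart. All 14 endothelial markers, Pecam1, Cdh5 and Kdr among them, were detected and tested in each depot. Their summed level was 3137 to 3154 CPM in KO and 3336 to 3829.8 CPM in control libraries of isWAT, 1666 to 2100.4 CPM in KO and 2228 to 2266.5 CPM in control of sWAT, and 1132 to 1180.5 CPM in KO and 1300.5 to 1600.5 CPM in control of BAT. Groups of 8, 8 and 11 of the 14 did not overlap in isWAT, sWAT and BAT, all lower in KO, and 0 were called. Of all genes, 19.4%, 12.3% and 38.1% were lower without overlap in these depots. In ieWAT the sums were 1506 to 2342 CPM in KO and 1855 to 1937.5 CPM in control, with groups of 0 markers free of overlap. The first sWAT KO library, at 22.7 CPM for the muscle markers and so within the control range, had 171 CPM of S1pr1, below all control libraries. In BAT the first KO library had 0.923 CPM of muscle markers and 129.7 CPM of S1pr1, and the second 5963 CPM of muscle markers and 77.8 CPM of S1pr1. In eWAT the endothelial sums were 548 to 727 FPKM in the libraries labelled KO and 336 to 411 FPKM in control. There 9 of the 14 were called higher by limma, against 10.2% of all genes.

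Set against the mean of these 14 markers on the log2 scale, S1pr1 was lower by 0.37 in isWAT KO libraries (-0.40 and -0.24, against -0.01, -0.09 and 0.26 in control). The isWAT groups did not overlap on this difference. In eWAT the same difference was 0.40, 0.30 and 0.46 in the libraries labelled KO, against 0.76, 0.60 and 0.54 in control, again without overlap and lower by 0.25. In sWAT, BAT and ieWAT the groups overlapped on it, with mean differences of -0.12, -0.10 and -0.23. Lists of other cell types also differed between the groups. In isWAT the T and NK cell list, of which 11 of 12 markers were tested, summed to 17.3 to 22.1 CPM in KO against 26.6 to 31.6 CPM in control, and the mean of the 9 pericyte and smooth muscle markers was lower by 0.22 on the log2 scale, without overlap. T and NK cell sums were 2.07 to 2.77 CPM in KO against 4.45 to 15.7 CPM in control of BAT, and 62.4 to 84.96 CPM in KO against 27.6 to 62.2 CPM in control of ieWAT, while in sWAT and eWAT the groups overlapped. The part of endothelial content in the S1pr1 values was not tested beyond these differences, and that of the other cell types was not tested.

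**Figure D3:**
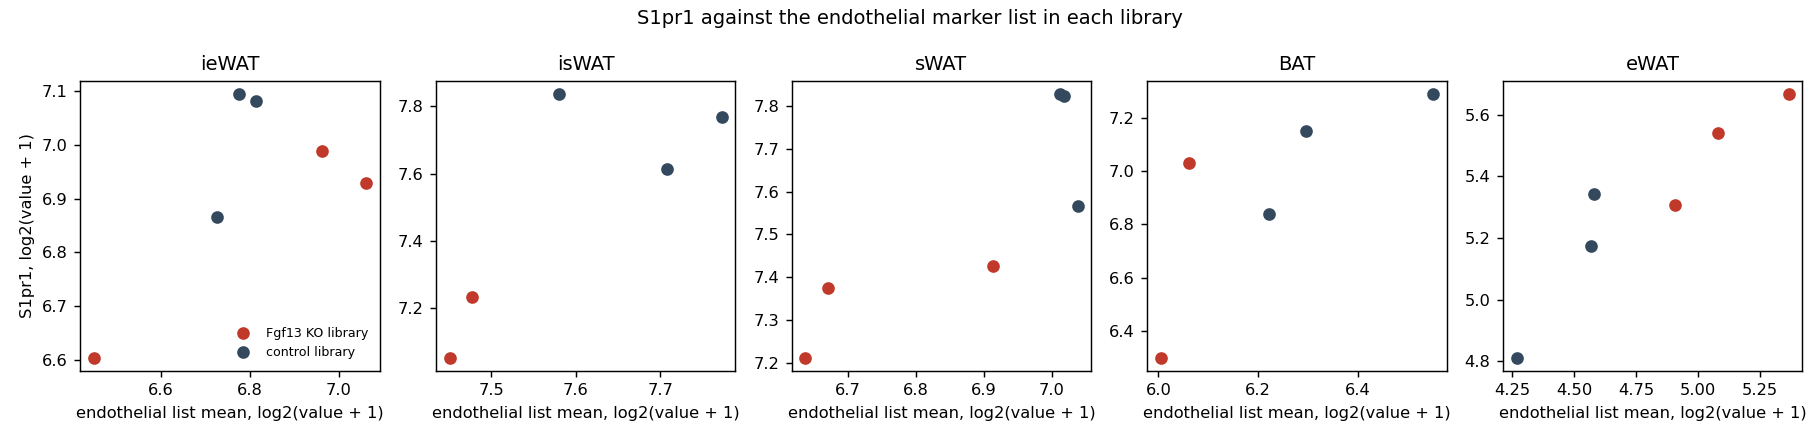
S1pr1 (vertical axis) against the mean of the 14 endothelial markers (horizontal axis), both on the log2(value + 1) scale, 1 point per library and 1 panel per depot, with axes scaled to each panel. In eWAT the libraries labelled KO lie right of control (list means of 4.91 to 5.36 against 4.27 to 4.58), and in sWAT the KO libraries lie left of and under control (6.64 to 6.91 against 7.01 to 7.04).

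S1pr3, a receptor of smooth muscle, fibroblasts and endothelium, had higher values in the KO libraries of isWAT. It stood at 39.8 and 43.1 CPM in KO libraries, against 35.5, 29.9 and 33.3 CPM in control libraries. Both KO libraries lay above all control libraries, with a log2 change of 0.33 (SE 0.10, limma adjusted p = 0.314). In BAT it stood at 11.9 and 10.4 CPM in KO, against 13.5, 14.1 and 14.8 CPM in control. Both BAT KO libraries lay below all control libraries, with a log2 change of -0.31 (SE 0.13, limma adjusted p = 0.258), in a depot whose all-gene median was -0.18. The BAT change was -0.12 with TMM scaling and -0.13 with edgeR and with DESeq2. In ieWAT, sWAT and eWAT the groups overlapped, with log2 changes of -0.08, -0.13 and -0.36.

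The receptor make-up of isWAT thus stood apart between the groups. Per length, S1pr1 accounted for 75.4% and 77.2% of the summed level of the 5 S1P receptor genes in isWAT KO libraries, against 83.7% to 86.3% in control, and S1pr3 for 15.2% and 15.5%, against 8.62% to 9.42%. In eWAT the S1pr1 share was 63.2% to 71.6% in the libraries labelled KO and 46.3% to 60.5% in control. In ieWAT, sWAT and BAT the shares of S1pr1 overlapped, with means of 66.9%, 84.9% and 86.5% in KO and 70.3%, 86.3% and 87.8% in control. S1pr5, a receptor of natural killer cells and oligodendrocytes, was below the filter in all 4 white depots.

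**Figure D4:**
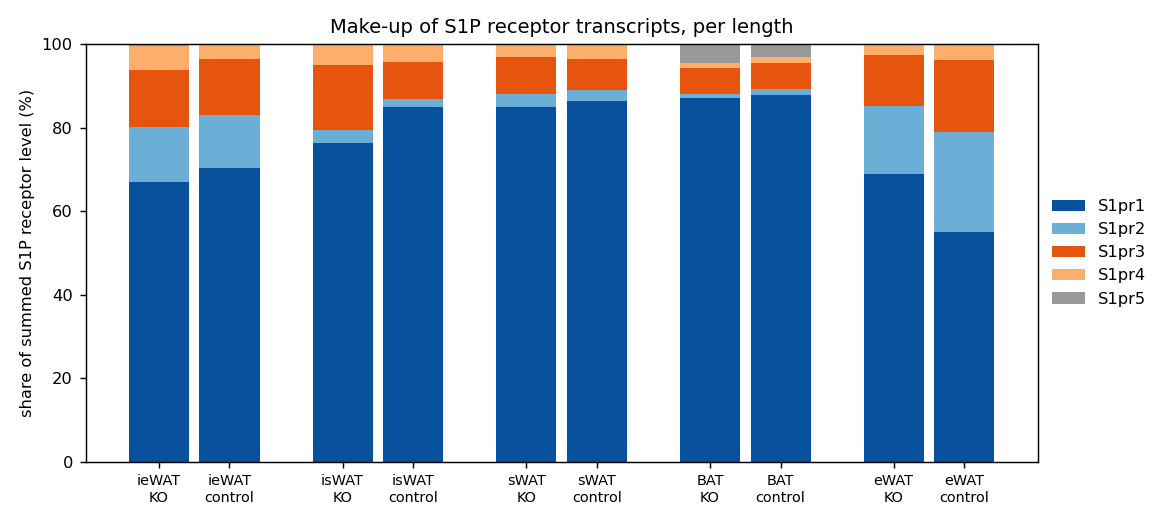
Stacked bars give the share (percent, vertical axis) of each of the 5 S1P receptor genes in the summed per-length receptor level, from group means, with KO left of control in each depot. S1pr1 takes a mean share of 76.3% in isWAT KO and 84.8% in isWAT control, and 68.8% in eWAT libraries labelled KO against 54.6% in eWAT control.

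Among the ceramidases, Acer2, the Golgi alkaline ceramidase, had a KO mean 24.1% to 26.6% lower than control in ieWAT, isWAT and sWAT. In isWAT it stood at 72.7 and 75.9 CPM in KO, against 96.7, 105 and 91.6 CPM in control. These groups did not overlap (log2 change -0.39, SE 0.09, limma adjusted p = 0.270, DESeq2 adjusted p = 0.0234, edgeR adjusted p = 0.397). In sWAT it stood at 41.8, 54.7 and 62.8 CPM in KO, against 76.9, 67.7 and 72.5 CPM in control. All 3 KO libraries lay below control (log2 change -0.46, SE 0.14, limma adjusted p = 0.447). In ieWAT it stood at 34.2, 54.1 and 34.2 CPM in KO, against 61.2, 46.2 and 56.9 CPM in control. Here the second KO library lay among the control libraries (log2 change -0.44, SE 0.20, limma adjusted p = 1.00), and without it the change was -0.66. ieWAT and isWAT may share animals, so these are not counted as separate repeats.

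Acer2 did not follow this order in the other depots. In BAT it stood at 82.9 and 38.3 CPM in KO, against 86.5, 67.9 and 56.0 CPM in control. The BAT KO libraries lay far apart, and the log2 change was -0.29 (SE 0.38, limma adjusted p = 0.670), or -0.08 with TMM scaling. In eWAT it stood at 6.72, 11.7 and 13.1 FPKM in the libraries labelled KO, against 10.4, 8.18 and 6.77 FPKM in control. The groups overlapped, with a log2 change of 0.25 (SE 0.25, limma adjusted p = 0.508). The mean of 10 adipocyte markers was itself higher by 1.30 on the log2 scale in the eWAT libraries labelled KO. Minus that mean, Acer2 was lower by 1.05 in eWAT, 0.55 in ieWAT, 0.43 in isWAT and 0.57 in sWAT, each without overlap. In BAT this difference was -0.11, with overlap. The part of adipocyte content in the Acer2 values was not tested beyond these differences.

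Asah1, the acid ceramidase whose loss causes lysosomal ceramide storage in Farber disease, was called lower in eWAT. It stood at 129, 111 and 121 FPKM in the libraries labelled KO, against 149.9, 175 and 181 FPKM in control. The groups did not overlap, and the mean was 28.6% lower (log2 change -0.48, SE 0.11, limma adjusted p = 0.0324). In BAT it stood at 26.4 and 24.1 CPM in KO, against 41.6, 34.3 and 55.2 CPM in control. These groups did not overlap either (log2 change -0.74, SE 0.20, limma adjusted p = 0.237). Without the second BAT control library the change was -0.90 and was called (limma adjusted p = 0.00966), and with TMM scaling it was -0.54. The fit without that library called 2079 of 13253 genes, 1948 of them lower, against 1 gene in the main fit.

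In the remaining 3 depots Asah1 did not separate the groups. In ieWAT it stood at 131, 105 and 196 CPM in KO, against 175, 146 and 109.6 CPM in control, and the log2 change was -0.02 (SE 0.26). In isWAT it stood at 64.6 and 70.4 CPM in KO, against 58.8, 61.2 and 68.7 CPM in control, and the log2 change was 0.10 (SE 0.10). In sWAT it stood at 87.0, 109 and 83.8 CPM in KO, against 97.4, 104 and 101 CPM in control, and the log2 change was -0.12 (SE 0.10). The third ieWAT KO library was the highest and the second the lowest of their depot.

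Acer3, an alkaline ceramidase with a preference for ceramides of unsaturated long-chain fatty acids, was lower in the same depots as Asah1. In eWAT it stood at 21.9, 18.3 and 18.3 FPKM in the libraries labelled KO, against 24.7, 29.2 and 34.7 FPKM in control. No library labelled KO reached the control range (log2 change -0.57, SE 0.14, limma adjusted p = 0.0405). In BAT it stood at 6.46 and 7.22 CPM in KO, against 9.23, 10.03 and 12.7 CPM in control. The BAT groups did not overlap (log2 change -0.56, SE 0.18, limma adjusted p = 0.237). In ieWAT, isWAT and sWAT the groups overlapped, with log2 changes of -0.07, 0.07 and -0.25.

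Asah2, the neutral ceramidase, was lower without overlap in sWAT and BAT. In sWAT it stood at 36.9, 34.3 and 30.6 CPM in KO, against 37.6, 47.4 and 44.6 CPM in control. The highest KO library lay close under the lowest control library (log2 change -0.34, SE 0.11, limma adjusted p = 0.447). In BAT it stood at 17.2 and 19.7 CPM in KO, against 21.2, 20.7 and 23.2 CPM in control. This difference (log2 change -0.22, SE 0.12, limma adjusted p = 0.325) was close to the all-gene median of BAT and was -0.03 with TMM scaling. In ieWAT, isWAT and eWAT the Asah2 groups overlapped and the log2 changes were -0.01, -0.08 and 0.00.

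The sphingosine kinases showed no change that passed a test in any depot. Sphk1, the cytosolic kinase that is induced by growth factors and inflammatory signals, stood at 1.27 and 0.985 CPM in isWAT KO libraries, against 2.54, 1.381 and 1.91 CPM in control. These values come from 48 and 41 reads in KO and from 99, 53 and 93 reads in control, and the groups did not overlap (log2 change -0.45, SE 0.20, limma adjusted p = 0.403). In BAT Sphk1 was under the filter, at 0.246 and 0.401 CPM in KO (4 and 6 reads) and 0.800, 0.314 and 0.892 CPM in control (17, 5 and 17 reads). On the recovered reads its BAT log2 change was -0.83 with edgeR (adjusted p = 0.509) and -0.83 with DESeq2 (SE 0.95, with no adjusted p given). In eWAT it stood at 4.08, 4.03 and 5.49 FPKM in the libraries labelled KO, against 5.91, 5.10 and 8.96 FPKM in control, with overlap (log2 change -0.45, SE 0.20, limma adjusted p = 0.172).

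Sphk1 overlapped between the groups in the other 2 depots as well. In ieWAT it stood at 9.45, 6.40 and 7.36 CPM in KO, against 7.42, 6.77 and 8.30 CPM in control (log2 change 0.03, SE 0.18). In sWAT it stood at 1.57, 1.40 and 2.07 CPM in KO, against 2.02, 1.04 and 1.22 CPM in control (log2 change 0.16, SE 0.20). Sphk2, the kinase found in nuclei and mitochondria, was the more abundant of the pair per length in every library. The per-length ratio of Sphk2 to Sphk1 was 20.9 to 30.6 in sWAT KO and 21.5 to 43.3 in sWAT control, and 3.64 to 5.29 in eWAT libraries labelled KO and 2.74 to 4.29 in eWAT control.

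Sphk2 itself hardly differed between the groups. In sWAT it stood at 37.1, 37.2 and 37.8 CPM in KO, against 37.9, 39.1 and 39.1 CPM in control. The sWAT groups did not overlap, but the log2 change was -0.05 (SE 0.06, limma adjusted p = 0.815). In ieWAT, isWAT, BAT and eWAT the groups overlapped, with log2 changes of -0.12, -0.19, -0.10 and -0.21. The BAT direction of Sphk2 turned to 0.10 with TMM scaling. Exons of Sphk2 share 13% of their bases with Dbp and 8.97% with Rpl18 on the opposite strand, and the sources used here do not say whether counting used strand, so reads of Sphk2 are uncertain to that extent.

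The enzymes that remove S1P were both called lower in eWAT. Sgpl1, the lyase that ends the sphingolipid pathway, stood at 81.5, 61.9 and 74.1 FPKM in the libraries labelled KO, against 92.7, 108 and 116 FPKM in control. The groups did not overlap, and the mean was 31.3% lower (log2 change -0.54, SE 0.13, limma adjusted p = 0.0421). Sgpp1, the phosphatase of the endoplasmic reticulum that returns S1P to sphingosine, stood at 22.7, 18.9 and 20.6 FPKM in the libraries labelled KO, against 29.0, 31.6 and 29.0 FPKM in control. Its groups were the furthest apart of the 4 relative to their spread (log2 change -0.51, SE 0.09, limma adjusted p = 0.0174).

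Outside eWAT neither enzyme separated the groups. Sgpl1 averaged 250.3, 112, 106 and 99.2 CPM in KO libraries of ieWAT, isWAT, sWAT and BAT, against 253, 107, 122 and 108 CPM in control. Its log2 changes in these depots were -0.04, 0.08, -0.21 and -0.13, and the BAT value turned to 0.08 with TMM scaling. Sgpp1 averaged 35.2, 17.1, 31.6 and 6.71 CPM in KO, against 34.4, 14.1, 33.7 and 11.9 CPM in control, with log2 changes of 0.02, 0.24, -0.11 and -0.68. The BAT value of Sgpp1 had an SE of 0.34 and was called when the second control library was left out (-0.97, limma adjusted p = 0.0319). That fit called 2079 of 13253 genes. The BAT change of Sgpp1 came to -0.41 when the third control library was left out.

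The eWAT calls sat near the threshold. With TMM scaling only Sgpp1 was still called, none of the 10 was called without the filter on low values, and 0 to 4 were called when 1 library was left out, with 0 when the third library labelled KO or the second control library was missing. A second deposited table of the same eWAT samples, in TPM, gave log2 changes of 1.42 for Asah1, 0.34 for Acer3 and 0.69 for Sgpp1 and of -1.71 for Sgpl1, none of them called. The median change of all 11790 genes tested in TPM was itself 0.65.

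Macrophage and adipocyte markers differed strongly between the eWAT groups. The 10 macrophage markers were all tested, and 7 were called lower by limma. Their summed level was 4889 to 5711 FPKM in the libraries labelled KO against 7900.1 to 11364 FPKM in control. At an unadjusted p under 0.05, 9 of them were lower and 1 higher, against 15% of all genes lower and 33.9% in either direction. The 10 adipocyte markers were all called higher, with sums of 17579 to 22252 FPKM in the libraries labelled KO against 7476 to 9574 FPKM in control. Of all eWAT genes, 4.7% were called lower and 10.2% higher. No marker of either list was listed at 0 in every eWAT library. Minus the mean of the macrophage list on the log2 scale, Asah1 stood at -0.71, -0.71 and -0.62 in the libraries labelled KO and at -0.76, -0.73 and -0.68 in control, with overlap. The same differences between KO and control means were 0.04 for Asah1, -0.04 for Acer3, -0.01 for Sgpl1 and 0.01 for Sgpp1, each with overlap. The separate list of 10 lipid-associated macrophage markers, of which 1 was called lower, had a list mean lower by 0.78 in eWAT. Groups of 7 markers were lower without overlap and those of 1 were higher, against 19.6% of all genes lower and 41.2% in either direction. Sums of the list, which weigh its most abundant markers most, were 8188 to 10958 FPKM in the libraries labelled KO. In control they were 10743 to 19989 FPKM, so the sums overlapped. Asah1 minus that list was higher by 0.30 in the libraries labelled KO, with overlap. In sWAT it was higher in KO by 0.59 and in isWAT lower by 0.37, both without overlap. Mast cell markers moved too in eWAT, with 5 of 7 called lower, against 4.7% of all genes. Their sums were 74.5 to 433 FPKM in the libraries labelled KO against 803 to 1637 FPKM in control.

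In BAT the macrophage list was also lower in KO, but by more than these genes. Its sums were 159.99 and 164.1 CPM in KO against 361 to 1457 CPM in control. Groups of 9 of the 10 markers were free of overlap, all lower in KO, against 38.1% of all genes, and 0 were called. Minus this list, Asah1, Acer3, Sgpl1 and Sgpp1 were higher in BAT KO libraries by 1.15, 1.33, 1.77 and 1.21 on the log2 scale, without overlap. The part of macrophage content in the values of these genes was not tested beyond these differences, and that of mast cells was not tested.

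Of 18 further genes of the pathway, 13 or 14 were tested in each depot, and 2 were called, both higher in eWAT. These are 2 of 13 tested in eWAT, where 10.2% of all genes were called higher and 14.9% in either direction, so the share is near the background. Adipor2, an adiponectin receptor with ceramidase activity, stood at 125, 131 and 134 FPKM in the libraries labelled KO, against 80.8, 80.7 and 61.2 FPKM in control (log2 change 0.81, SE 0.13, limma adjusted p = 0.0136). Plpp3, a surface phosphatase that removes phosphate from S1P and lysophosphatidate, stood at 107, 119 and 110.2 FPKM in the libraries labelled KO, against 78.5, 83.8 and 78.2 FPKM in control (log2 change 0.48, SE 0.08, limma adjusted p = 0.0168). Neither group pair overlapped.

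In the other depots the further genes with the smallest p are given as values, and limma called none of them. In ieWAT S1pr4, a receptor of leukocytes, averaged 7.71 ± 1.62 CPM in KO and 5.00 ± 0.510 CPM in control (SD, n = 3 each, log2 change 0.52). In isWAT Spns2, the transporter that exports S1P from endothelium, averaged 34.0 ± 3.62 CPM in KO (n = 2) and 44.0 ± 1.47 CPM in control (n = 3), and like S1pr1 it was lower in both KO libraries. In sWAT Psap, the precursor of the saposins that help lysosomal ceramide breakdown, averaged 2788 ± 542 CPM in KO and 3585 ± 167 CPM in control (n = 3 each, log2 change -0.38). In BAT the ABC transporter Abcc1 (25.5 ± 3.91 CPM in KO, 35.1 ± 4.64 CPM in control), the lysosomal amidase Naaa (14.7 ± 2.09 and 26.9 ± 8.17 CPM in KO and control) and the lipid phosphatase Plpp2 (5.46 ± 0.503 and 7.84 ± 1.01 CPM in KO and control) were lower in both KO libraries. Limma adjusted p was 0.99988 for S1pr4, 0.282 for Spns2 and 0.489 for Psap in the depots named. In BAT it was 0.240 for Abcc1, 0.240 for Naaa and 0.243 for Plpp2. Groups of 6 of the 14 further genes tested in BAT were lower without overlap, against 38.1% of all genes. That share is near the background, and the all-gene median of BAT was -0.18. Acer1, the skin ceramidase, and Sgpp2, the second S1P phosphatase, were under the filter in every depot.

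Across libraries of a group, several of the genes varied together. Over the 22 libraries in CPM, with each value taken as its difference from the mean of its depot and group, Asah1 varied with Acer3 (Pearson r = 0.89, Spearman rho = 0.77), Sgpp1 (r = 0.88, rho = 0.82) and Sgpl1 (r = 0.86, rho = 0.88). With the 2 libraries farthest from the median left out, r was 0.84, 0.84 and 0.83. In eWAT, over 6 libraries centred on their group means in the same way, r was 0.89 for Acer3, 0.65 for Sgpp1 and 0.96 for Sgpl1. S1pr1 was not part of this set (r = -0.01 with Asah1), and Acer2 had r = -0.26 with Asah1 and 0.50 with S1pr1, the last of which was 0.11 without the 2 farthest libraries. These are descriptions: libraries of a depot share its normalisation, and the 2 deviations in a group of 2 libraries mirror each other.

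**Figure D5:**
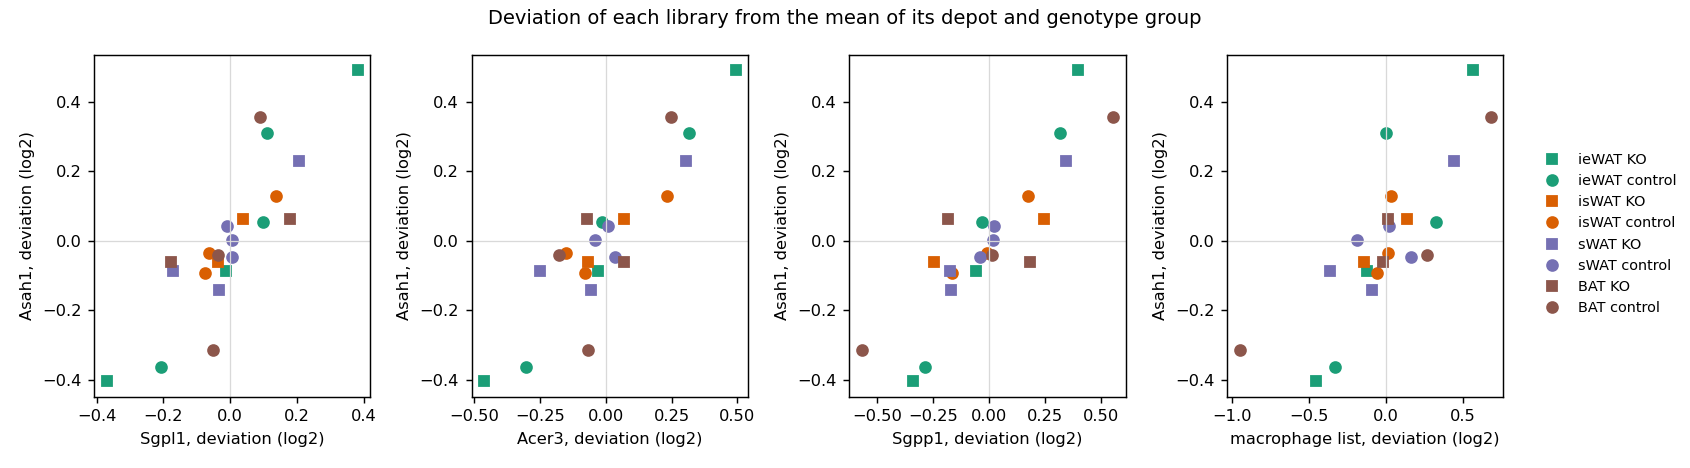
Deviation of Asah1 (vertical axis, log2) from the mean of its depot and group in each of the 22 CPM libraries, against the deviation of Sgpl1, Acer3, Sgpp1 and the mean of the macrophage list (horizontal axes, log2), coloured by depot, with squares for KO and circles for control libraries. Points run from lower left to upper right in all 4 panels, with r of 0.86, 0.89, 0.88 and 0.81, and the ieWAT libraries span the widest range of Asah1, 0.49 above to 0.40 below their group mean.

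The macrophage list varied with Asah1 (r = 0.81, rho = 0.80) and Sgpp1 (r = 0.85, rho = 0.76) over the same 22 libraries. Its r was 0.74 with Sphk2, 0.65 with Sgpl1 and 0.64 with Acer3. The fibroblast and progenitor list varied with Sgpp1 (r = 0.90, rho = 0.87) and with Asah1 (r = 0.76, rho = 0.66), so likeness to 1 list was not particular. The endothelial list varied with S1pr1 at r = 0.53 and rho = 0.56. In eWAT r was 0.94 for Asah1 with the macrophage list and 0.91 for S1pr1 with the endothelial list, over 6 libraries centred on their group means. It was 0.33 for Sgpp1 with the fibroblast and progenitor list. Other eWAT pairs were as strong: S1pr1 had r = 0.86 with the adipocyte list and -0.93 with the lipid-associated macrophage list. Asah1 had r = -0.97 with the pericyte and smooth muscle list. These eWAT values therefore do not single out a cell type. Among 12575 genes compared over the 22 libraries, the 3 most like Asah1 were Sdcbp (r = 0.99), Pdia3 (r = 0.97) and Stx7 (r = 0.96), a vesicle adaptor, a disulfide isomerase of the endoplasmic reticulum and an endosomal syntaxin. Acer3 was most like the transcription factor Mitf (r = 0.95), Ago1 (r = 0.95) and the sheddase Adam17 (r = 0.94), and Sgpl1 most like Nfya (r = 0.93), Mfsd11 (r = 0.93) and Adam17 (r = 0.92). Sgpp1 was most like Serpinb8 (r = 0.96), B4galt6 (r = 0.95) and Slc25a24 (r = 0.95).

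For the receptors, S1pr1 was most like the growth factor receptor Fgfr3 (r = 0.88), the junction scaffold Magi1 (r = 0.88) and B3gntl1 (r = 0.84), and S1pr3 most like the clock repressor Bhlhe41 (r = 0.86), Zcchc24 (r = 0.85) and Pxylp1 (r = 0.81). Acer2 was most like the kinase Snrk (r = 0.92), Fam107a (r = 0.89) and Lnx1 (r = 0.84), and in eWAT, which the choice did not use, r with these was 0.94, 0.90 and 0.87 over 6 libraries. Asah2 was most like Mkln1, Ebf1 and Nr2c2 (r = 0.85 for each). Sphk1 was most like Arhgef7 (r = 0.85), Vps37c (r = 0.85) and Xpnpep1 (r = 0.79), and Sphk2 most like Tbc1d10b (r = 0.93), Tubb2a (r = 0.92) and Lrch4 (r = 0.91). In eWAT the likeness was lost for some pairs, with r of -0.62 for Acer3 and Ago1, -0.02 for Sphk1 and Arhgef7 and 0.07 for Sgpp1 and Serpinb8.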

How the data were processed

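Bulk RNA-seq tables of 5 mouse adipose depots were used as deposited. The authors used Salmon, FastQC, MultiQC and DESeq2 1.38.3, per the submitters' processing notes, which give no roles. Aligner, genome build and annotation: not given in the sources used here. The deposited ieWAT, isWAT, sWAT and BAT values are CPM although the tables are named FPKM: columns sum to 1000000, and 100% of the values tested were whole multiples of 1 read within 0.01 reads. One read was worth 0.0205 to 0.0741 CPM. The deposited eWAT values are FPKM, without read totals. A further deposited table of the eWAT samples holds TPM and served as an alternative, and the remaining one of the 7 tables was not used. Symbols came from GENCODE M21 by Ensembl identifier (92.0% matched, 96.0% in ieWAT).

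Each depot was fitted alone with limma 3.58.1 (R 4.3.3; lmFit and two-sided eBayes, trend and robust options on) on log2(value + 1). A gene was tested where the number of libraries at 1 or above was no less than the size of the smaller group, and p was adjusted by Benjamini-Hochberg over all of them, with a threshold of 0.05. Alternatives were TMM scaling, edgeR 4.0.16 and DESeq2 1.42.0 on the recovered reads, no filter, pseudocounts of 0.5 and 0.1, eBayes without options, the replicate number as a block, the TPM table and leaving out each library. Tests were tried on simulated data. Per-length levels divide CPM by the union of GENCODE exons. Of the 31-base words of these transcripts, at most 5.78% (Acer3) occur in other genes.

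The 10 genes, the 18 further pathway genes and the marker lists were chosen with earlier results of these data known. Values of each library are given for S1pr1, Sphk1, Acer2 and Asah1, and for the other genes where p was under 0.05 or the groups did not overlap. Of the further pathway genes, those called are named and otherwise up to 3 per depot with the smallest p. For each gene the 3 with the highest centred Pearson correlation over 22 libraries are named.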

Additional observations from a re-analysis of the deposited data

Results flagged for a closer look

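S1pr3 differed in direction between depots. Every KO library of isWAT lay above every control library (log2 change 0.33), and every KO library of BAT lay below every control library (log2 change -0.31, where the median of all genes was -0.18). The BAT change was -0.12 with TMM scaling and -0.13 with edgeR and with DESeq2. The difference between the depots was not tested, since the depots are separate tables. Groups of 2 or 3 libraries are too small to tell which single library is an outlier, so each was only left out in turn. With 1 library left out, the S1pr3 change ran from 0.26 to 0.38 in isWAT and from -0.40 to -0.23 in BAT.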

How the results depend on the processing

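The main limits are groups of 2 or 3 libraries, an eWAT set without a lower Fgf13 and without read totals, and marker lists that differ between groups. Of 382 values of single genes under other settings, 349 kept direction and side of the threshold, 14 were no longer called, 2 were newly called and 17 reversed. Of 275 values with 1 library left out, 227 kept both, 17 were no longer called, 2 were newly called and 29 reversed.

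The number of the 10 genes called in isWAT was 2 with DESeq2, which called 245 of 28420 genes there. In BAT it was 0 to 2 with 1 library left out. The 2 came without the second control library, where 2079 of 13253 genes were called. In eWAT, against 4, it was 1 with TMM scaling, 0 without the filter, 2 with eBayes without trend and robust options, 0 with the replicate number as a block, 0 in the TPM table and 0 to 4 with 1 library left out. The block left 0 called in each depot. Correlations of deviations between same-numbered libraries ran from -0.56 to 0.39. Deviations from the mean of 2 or 3 libraries depend on each other, so this check cannot decide whether the numbers pair the libraries. Over all genes eWAT calls were 1395 higher and 646 lower, and 1542 and 374 with TMM scaling; 544 were called without the filter and 1 in the TPM table. The cause of these differences was not tested.

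In BAT, Sphk2 was 0.104 with TMM scaling, 0.0915 with edgeR, 0.0863 with DESeq2 and 0.0263 with the block, and Sgpl1 was 0.0763, 0.0912 and 0.0867 with TMM, edgeR and DESeq2. In eWAT, Asah2 was 0.0469 with TMM scaling, 5.7071e-06 and 0.00087681 with pseudocounts of 0.5 and 0.1 and 0.83 in the TPM table, which also gave 1.42 for Asah1, 0.34 for Acer3, 0.86 for Sphk1, 2.07 for Sphk2, 0.69 for Sgpp1 and 0.53 for S1pr3. The all-gene median in the TPM table was 0.65.

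With 1 library left out, ieWAT changes ran from -0.26 to 0.18 for Asah1, -0.0887 to 0.134 for Asah2, -0.32 to 0.16 for Acer3, -0.11 to 0.14 for Sphk1, -0.22 to 0.0289 for Sphk2, -0.23 to 0.14 for Sgpl1, -0.18 to 0.19 for Sgpp1 and -0.20 to 0.0288 for S1pr3. In isWAT they ran from -0.18 to 0.0104 for Asah2, -0.0041 to 0.19 for Acer3 and -0.0026 to 0.49 for Sgpp1, in sWAT from -0.27 to 0.0281 for S1pr3, in BAT from -0.84 to 0.26 for Acer2, -0.30 to 0.0263 for Sphk2 and -0.31 to 0.0473 for Sgpl1, and in eWAT from -0.19 to 0.10 for Asah2.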
